A study of Homo sapiens with 12 samples.

Results

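Excision and mismatch repair genes are the genes of 3 pathways that remove damaged or mispaired bases from DNA. The 32 genes of a textbook list were looked up in the array's annotation, and a gene was taken where a probe set, the group of short probes that reports 1 transcript, named that gene and no other. This gave 31 genes on 49 probe sets, of 11963 genes that the array reports singly: 14 of base excision repair, 13 of nucleotide excision repair and 4 of mismatch repair. PMS2 is annotated only on probe sets shared with another gene and was left out.

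Messenger RNA that co-precipitated with eIF4E was measured in MDA-MB-231, an established human triple-negative breast cancer line. eIF4E is the protein that holds the cap at the 5′ end of a messenger and brings it to the ribosome, and the precipitates were made with a commercial kit. The 4 groups of 3 arrays were eIF4E precipitates of cells lysed 6 h after 2 Gy of X-rays, eIF4E precipitates of untreated cells, IgG precipitates of irradiated cells and IgG precipitates of untreated cells. IgG is an antibody with no such target, its precipitates give the background, and the design text calls the replicates biological.

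In base excision repair a glycosylase cuts a small altered base from the sugar, an endonuclease opens the strand, and a polymerase, a scaffold and a ligase close the gap, with PARP enzymes sensing the break. In nucleotide excision repair bulky lesions such as ultraviolet photoproducts are found either by the XPC complex or by a stalled RNA polymerase, and the TFIIH helicases open the helix for incision on both sides. In mismatch repair a MutS heterodimer finds a mispair left by replication and a MutL heterodimer directs the removal of the new strand.

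Each array had been scaled to the same trimmed mean (500.2), so every level and difference below is relative to the other genes of its array. Scaling to the hybridization controls, which are added after labelling, would add 2.61 (log2) to each eIF4E over IgG difference. The poly-A controls, designed to be added before labelling, read 15.1 to 37.0 on eIF4E arrays, against 994 to 2493 on IgG arrays, a log2 difference of -6.04. Their level on eIF4E arrays was near that of genes taken as not expressed (12.5 to 29.7, described below with ERCC4). With either set of controls as the scale, each repair gene called lower with eIF4E over both treatments, down to MSH6 at -1.34, would have a positive difference, so the direction of a call depends on scaling each array to its own genes. The arrays of both antibodies also differed in quality measures. Alu signal, from a repeat common in introns, was 13482 to 18476 on the 6 eIF4E arrays, against 36876 to 53246 on the 6 IgG arrays. The ratio of 3′ to 5′ actin signal was 1.33 to 1.53 with eIF4E, against 2.96 to 5.38 with IgG, and the GAPDH ratio was 1.13 to 1.31 with eIF4E, against 2.03 to 2.78 with IgG (exact permutation test, two-sided, p = 0.00216 for each of the 3, the smallest that 6 arrays against 6 allow). These measures move with every difference by antibody given below, and their part in it was not tested. Of 10 markers described for this line, among them vimentin and caveolin-1, 9 were above the signal filter, and of 10 luminal epithelial markers 4 were (GATA3, ERBB3, KRT19 and KRT18). ESR1 and PGR, the hormone receptors that triple-negative cells lack, and CDH1 were below it.

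Of the 31 repair genes, 30 were bright enough to be tested (mean signal of at least 57.4 by the brightest probe set). ERCC4, which encodes the nuclease XPF, was not. Its signal was 8.68, 6.19 and 7.72 with eIF4E in irradiated cells and 3.72, 6.21 and 7.66 with eIF4E in untreated cells, against 2.81, 4.07 and 21.9 with IgG in irradiated cells and 11.8, 31.6 and 39.1 with IgG in untreated cells. A list of 34 markers of liver, blood, nerve and muscle, taken as not expressed here, had medians of 12.5 to 29.7 per array, although 3 of the 34 (MBP, CD14 and ACTC1) were above the filter, so the ERCC4 probe set did not stand clear of them. Signals of different probe sets cannot be ranked against each other, so each gene is compared only with itself.

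**Figure D1:**
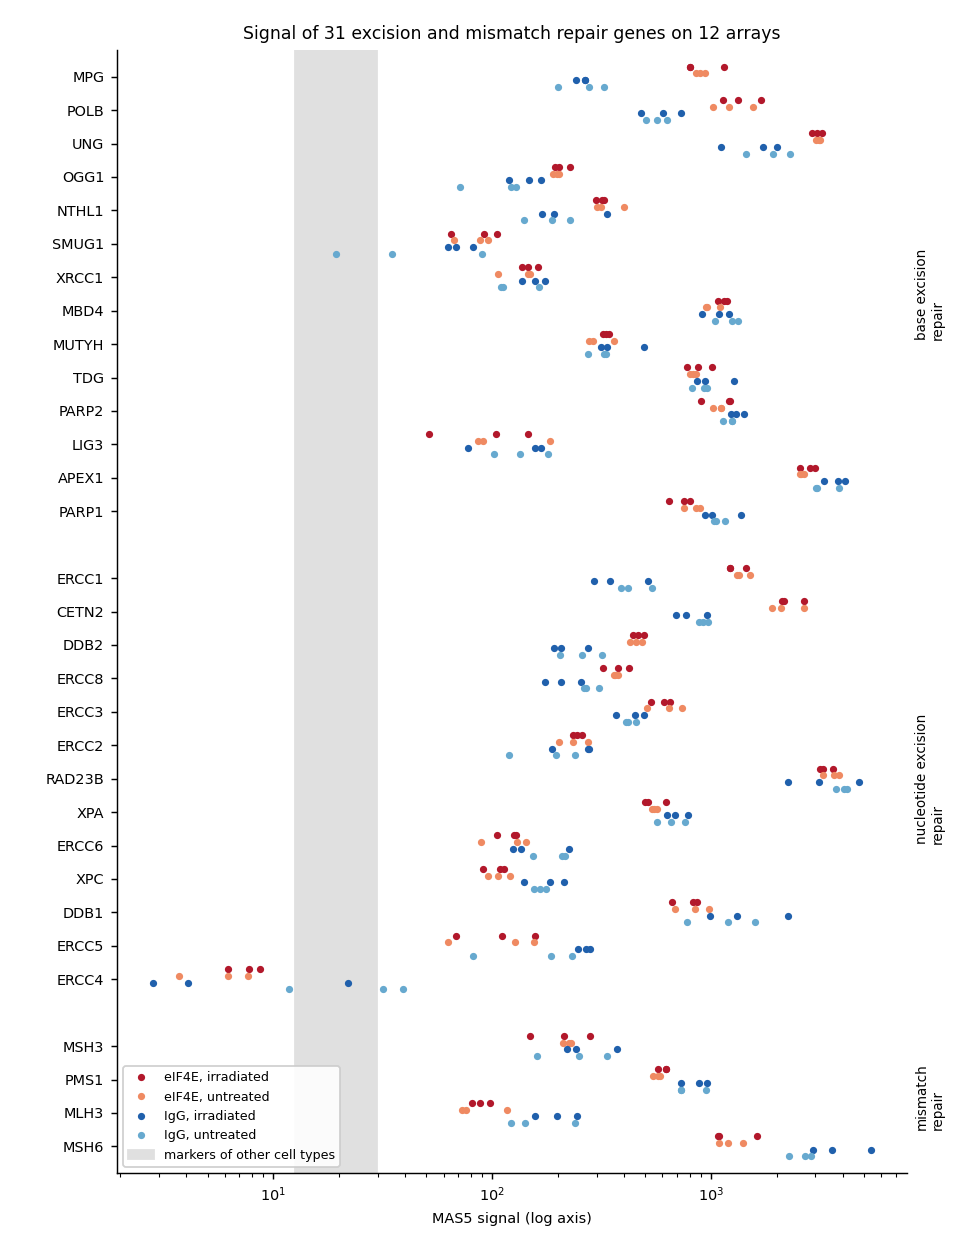
Signal (log axis) of the 31 repair genes on the 12 arrays, 1 point per array, with irradiated and untreated eIF4E precipitates in dark and light red and irradiated and untreated IgG precipitates in dark and light blue. The grey band is the range over arrays of the median of the 34 markers of other cell types (12.5 to 29.7). MPG, ERCC1 and CETN2 have every red point right of every blue one, MSH6 has the reverse, and only ERCC4 lies at or left of the band on most arrays.

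Comparing both antibodies asks which messengers came down with the cap-binding protein above background. Taken over both treatments, the repair genes split evenly: limma put 10 of 30 higher and 10 lower with eIF4E at an adjusted p of 0.05, and 10 did not pass. Among all 7178 genes tested 70.7% passed, 32.5% higher and 38.2% lower, so the share of repair genes that differed (66.7%) was near that of genes at large. The median difference of the 30 genes was -0.09 on the log2 scale, beside -0.07 for all genes. Centring each array on its own median brought these medians to 0.04 and 0.06, so the sign of the list's median depends on the scaling. In 15 of the 30 genes the 6 eIF4E arrays did not overlap the 6 IgG arrays, which held for 49.9% of all genes.

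Counted by pathway, the calls were as follows. In base excision repair 5 of 14 genes were higher and 2 lower (median -0.05, or 0.09 after centring). In nucleotide excision repair 5 of 12 were higher and 5 lower (median 0.07). In mismatch repair 0 of 4 were higher and 3 lower (median -0.69, or -0.56 after centring), and at an unadjusted p of 0.05 the counts for its 4 genes were the same 0 and 3. With 4 genes, and 38.2% of all genes lower, this count is a description of those 4 and no property of the pathway was tested.

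**Figure D2:**
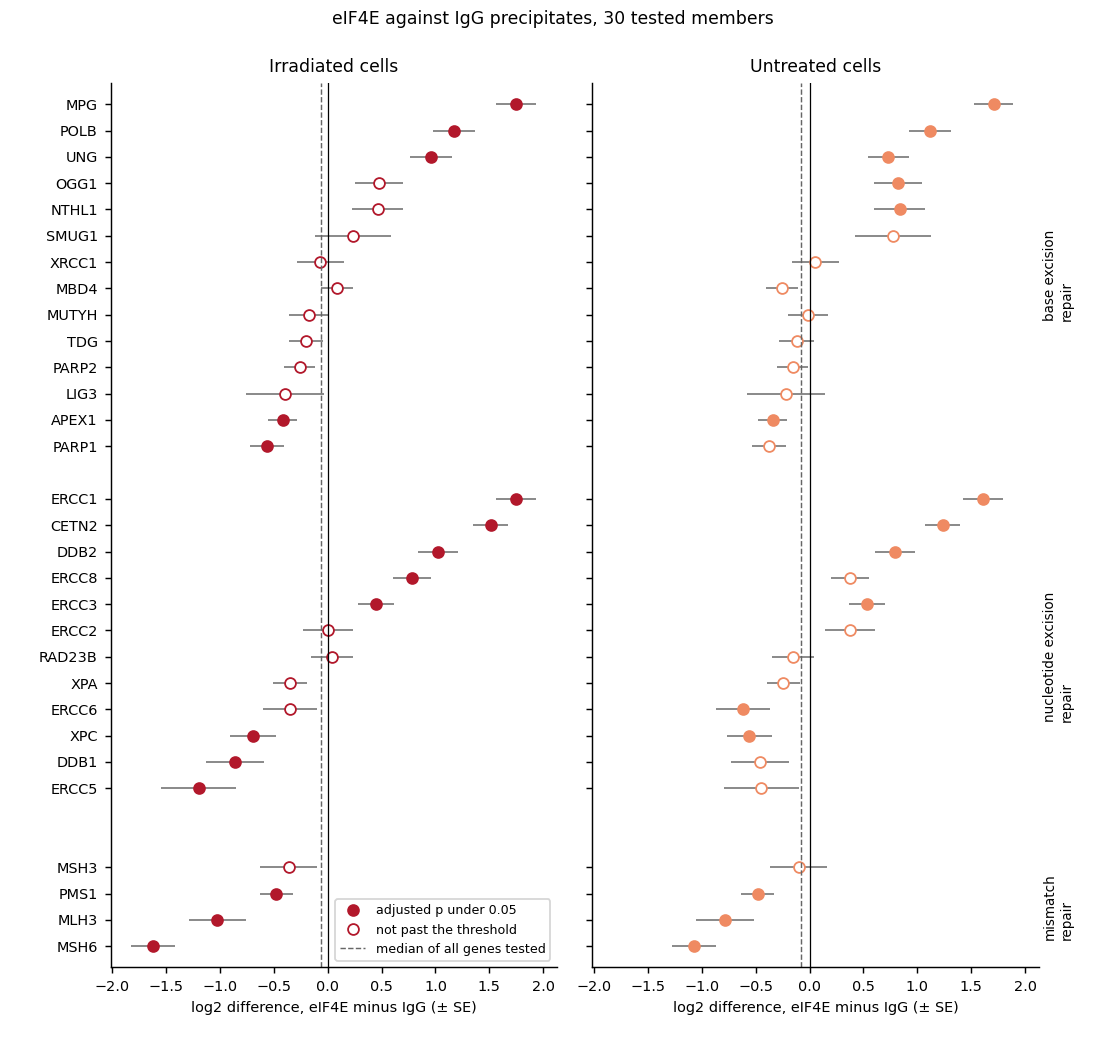
Difference in log2(signal + 16), eIF4E minus IgG, with its SE for the 30 tested repair genes, in irradiated cells on the left and in untreated cells on the right (3 arrays a side). Filled points pass an adjusted p of 0.05 and the dashed line is the median of all genes tested. MPG and ERCC1 have the highest differences in both panels and MSH6 the lowest, and all 4 mismatch repair genes lie left of 0.

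Among the glycosylases, which start base excision repair, MPG was relatively the most enriched. MPG removes alkylated purines such as 3-methyladenine. Its signal was 1144, 801 and 801 with eIF4E in irradiated cells and 887, 849 and 941 with eIF4E in untreated cells, against 265, 267 and 241 with IgG in irradiated cells and 325, 276 and 201 with IgG in untreated cells. Every eIF4E array was above every IgG array, and the difference was 1.73 ± 0.13 (log2 ± SE over 6 arrays a side, limma's adjusted p = 7.71e-09), the largest of the 30 genes. UNG, the main uracil-DNA glycosylase, had 2902, 3047 and 3225 with eIF4E in irradiated cells and 3134, 3118 and 3029 with eIF4E in untreated cells, against 1112, 2005 and 1722 with IgG in irradiated cells and 1450, 1928 and 2289 with IgG in untreated cells. The 6 eIF4E arrays lay close together and above all 6 IgG arrays, at a difference of 0.84 ± 0.14 (adjusted p = 3.63e-05).

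Both glycosylases of oxidised bases that passed did so at smaller sizes. NTHL1, which removes oxidised pyrimidines, was higher by 0.65 ± 0.17 (adjusted p = 0.00226). Its arrays overlapped, since irradiated IgG replicate 1 read 335, above 5 of the 6 eIF4E arrays (298 to 400). OGG1, which removes 8-oxoguanine, was higher by 0.65 ± 0.16 (adjusted p = 0.00141) by its brightest probe set, with 202, 226 and 193 with eIF4E in irradiated cells and 198, 201 and 190 with eIF4E in untreated cells, against 120, 167 and 148 with IgG in irradiated cells and 128, 71.2 and 122 with IgG in untreated cells. A second OGG1 probe set did not pass (0.30 ± 0.20, adjusted p = 0.173), and as the mean of all its probe sets OGG1 lost its call (0.23, adjusted p = 0.187).

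The other glycosylases did not pass by their brightest probe sets. MUTYH, which removes adenine opposite 8-oxoguanine, was at -0.09 ± 0.13 (95% interval -0.37 to 0.19). TDG, which removes thymine from G:T mispairs, was at -0.16 ± 0.11 (-0.40 to 0.08). SMUG1, a second uracil glycosylase, was at 0.51 ± 0.25 (adjusted p = 0.0801). Its signal lay close to the filter, and untreated IgG replicate 1 (89.9) stood above the other untreated IgG arrays (34.8 and 19.4). Without that array SMUG1 passed at 0.73 (adjusted p = 0.00554), as it did without replicate 1 of every group (0.73, adjusted p = 0.0183). With all 12 arrays it also passed under quantile normalization (0.62, adjusted p = 0.0388), median centring (0.64, adjusted p = 0.031) and array quality weights (0.66, adjusted p = 0.0101). MBD4, which acts on mispairs at methylated CpG sites, was at -0.09 ± 0.10 by its brightest probe set, although 2 other probe sets passed as higher.

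Downstream of the glycosylases the direction varied from step to step. POLB, the polymerase that fills the single-base gap, was higher by 1.14 ± 0.14 (adjusted p = 1.4e-06). Its signal was 1684, 1326 and 1134 with eIF4E in irradiated cells and 1562, 1020 and 1214 with eIF4E in untreated cells, against 606, 478 and 726 with IgG in irradiated cells and 633, 507 and 568 with IgG in untreated cells, without overlap. APEX1, the endonuclease that cuts at the abasic site, was lower by a small margin. It had 2542, 2829 and 2980 with eIF4E in irradiated cells and 2548, 2667 and 2585 with eIF4E in untreated cells, against 4095, 3815 and 3270 with IgG in irradiated cells and 3857, 3065 and 3028 with IgG in untreated cells. The difference was -0.38 ± 0.10 (adjusted p = 0.00221), with the highest eIF4E array (2980) just under the lowest IgG array (3028).

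The strand-break sensor PARP1 was lower as well. PARP1 had 806, 645 and 754 with eIF4E in irradiated cells and 752, 854 and 888 with eIF4E in untreated cells, against 1369, 1009 and 935 with IgG in irradiated cells and 1155, 1054 and 1032 with IgG in untreated cells. The arrays did not overlap, and the difference was -0.47 ± 0.11 (adjusted p = 0.00138). Its relative PARP2 was at -0.21 ± 0.10 (adjusted p = 0.0761). The scaffold XRCC1 was at -0.01 ± 0.16 (95% interval -0.33 to 0.32) and its partner, the ligase LIG3, at -0.31 ± 0.26 (-0.85 to 0.23).

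In nucleotide excision repair the damage sensors gave calls in opposite directions within the same complex. UV-DDB, which binds ultraviolet photoproducts in chromatin, is a dimer of DDB2, which contacts the lesion, and DDB1, which ties it to a CUL4 ubiquitin ligase. DDB2 had 441, 462 and 496 with eIF4E in irradiated cells and 486, 425 and 455 with eIF4E in untreated cells, against 205, 273 and 192 with IgG in irradiated cells and 316, 258 and 205 with IgG in untreated cells. All eIF4E arrays were above all IgG arrays, and DDB2 was higher by 0.91 ± 0.13 (adjusted p = 8.63e-06). DDB1 was lower by the fit, at -0.66 ± 0.19 (adjusted p = 0.00558). It had 828, 663 and 866 with eIF4E in irradiated cells and 847, 977 and 683 with eIF4E in untreated cells, against 2237, 1320 and 986 with IgG in irradiated cells and 1594, 1196 and 779 with IgG in untreated cells. The IgG arrays of DDB1 spread widely, and untreated IgG replicate 3 lay among the eIF4E arrays.

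The XPC complex, which finds distorted helix anywhere in the genome, was split in the same manner. CETN2, a centrin that stabilises XPC, had 2669, 2166 and 2117 with eIF4E in irradiated cells and 2650, 1894 and 2096 with eIF4E in untreated cells, against 690, 771 and 956 with IgG in irradiated cells and 921, 970 and 881 with IgG in untreated cells. It was higher by 1.37 ± 0.11 (adjusted p = 2.17e-08), with the lowest eIF4E array far above the highest IgG array. XPC, the subunit that binds DNA, was lower, at -0.62 ± 0.15 (adjusted p = 0.0014). Its signal was 113, 91.0 and 108 with eIF4E in irradiated cells and 106, 95.3 and 121 with eIF4E in untreated cells, against 214, 185 and 140 with IgG in irradiated cells and 155, 165 and 176 with IgG in untreated cells, also without overlap. RAD23B, which shields XPC from the proteasome, was at -0.06 ± 0.14 by its brightest probe set (95% interval -0.35 to 0.24).

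Transcription-coupled repair, which starts at a stalled RNA polymerase, showed the split once more. ERCC8, the CSA subunit of a CUL4 ligase, was higher by 0.58 ± 0.12 (adjusted p = 0.0005), without overlap between the eIF4E arrays (321 to 424) and the IgG arrays (174 to 309). ERCC8 has a second probe set below the signal filter (7.19 to 75.9 with eIF4E, 26.1 to 81.7 with IgG), and the mean of both turned its sign (-0.048, adjusted p = 0.839). ERCC6, the CSB translocase that recognises the stalled polymerase, was at -0.48 ± 0.18 (adjusted p = 0.0213). Its call was lost without irradiated eIF4E replicate 2 (-0.44, adjusted p = 0.0506), untreated eIF4E replicate 1 (-0.39, adjusted p = 0.0637) or irradiated IgG replicate 3 (-0.36, adjusted p = 0.0652), with no filter on dim genes (adjusted p = 0.051) and after centring (-0.35, adjusted p = 0.0803).

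At the opening and incision steps ERCC1 stood highest. ERCC1 is the partner of XPF in the nuclease that cuts on the 5′ side of the lesion. By its brighter probe set it had 1221, 1442 and 1219 with eIF4E in irradiated cells and 1504, 1347 and 1310 with eIF4E in untreated cells, against 293, 513 and 344 with IgG in irradiated cells and 535, 388 and 419 with IgG in untreated cells. It was higher by 1.68 ± 0.13 (adjusted p = 1.25e-08), and its second probe set gave 1.56 ± 0.11. ERCC3, the XPB helicase of TFIIH, was higher by 0.49 ± 0.12 (adjusted p = 0.00149; eIF4E arrays 512 to 739, IgG arrays 367 to 493), while ERCC2, the XPD helicase of the same complex, was at 0.19 ± 0.16 and did not pass (adjusted p = 0.31).

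ERCC5, the XPG nuclease that cuts on the 3′ side, was lower by the fit, at -0.82 ± 0.25 (adjusted p = 0.00727). It had 156, 68.5 and 110 with eIF4E in irradiated cells and 155, 127 and 62.8 with eIF4E in untreated cells, against 247, 279 and 268 with IgG in irradiated cells and 81.9, 231 and 186 with IgG in untreated cells. Untreated IgG replicate 1 (81.9) lay within the eIF4E range. XPA, which checks the lesion and positions the nucleases, was at -0.30 ± 0.11 (adjusted p = 0.0232). The XPA call was lost without irradiated eIF4E replicate 3 (-0.27, adjusted p = 0.0601), irradiated IgG replicate 3 (-0.25, adjusted p = 0.0567) or untreated IgG replicate 3 (-0.24, adjusted p = 0.0673). It was also lost without replicate 1 of every group (-0.27, adjusted p = 0.0736), after quantile normalization (-0.21, adjusted p = 0.105) and after centring (-0.16, adjusted p = 0.196).

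The MutS and MutL genes of mismatch repair were lower or did not pass. MSH6, the subunit that recognises base mispairs and short loops, had 1618, 1092 and 1073 with eIF4E in irradiated cells and 1202, 1396 and 1091 with eIF4E in untreated cells, against 5376, 2938 and 3560 with IgG in irradiated cells and 2682, 2851 and 2268 with IgG in untreated cells. The difference of -1.34 ± 0.15 (adjusted p = 4.3e-07) was the lowest of the 30 genes, and the arrays did not overlap. A second MSH6 probe set was lower by a smaller size (-0.43 ± 0.17, adjusted p = 0.031). MSH3, the alternative subunit for larger loops, was at -0.23 ± 0.19 (95% interval -0.63 to 0.17) by the probe set that represents it. Its other probe set was brighter (median signal 256 against 226) and passed as lower, as given below. That one was set aside because its design allows cross-hybridization, so the call of MSH3 rests on this choice.

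Both MutL genes were lower by their brightest probe sets. MLH3, best known from meiotic crossovers, had 81.1, 97.5 and 88.3 with eIF4E in irradiated cells and 75.7, 117 and 73.0 with eIF4E in untreated cells, against 245, 157 and 197 with IgG in irradiated cells and 140, 240 and 122 with IgG in untreated cells. The difference was -0.90 ± 0.19 (adjusted p = 0.000422), and the highest eIF4E array lay just below the lowest IgG array. PMS1, a MutL subunit with no settled role of its own in repair, was lower, at -0.48 ± 0.11 (adjusted p = 0.000816). Its signal was 622, 624 and 575 with eIF4E in irradiated cells and 541, 586 and 573 with eIF4E in untreated cells, against 954, 726 and 882 with IgG in irradiated cells and 727, 951 and 732 with IgG in untreated cells, without overlap.

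Because each array is scaled as a whole, the log2 ratio of a pair of partner genes within an array loses most of that scaling. It is not free of it, since 16 was added to the scaled signals, which weighs most on dim genes such as XPC, ERCC6 and MLH3: with 1 added in place of 16, CETN2 over XPC differed between antibodies by 2.08, ERCC8 over ERCC6 by 1.14 and PMS1 over MLH3 by 0.52, beside the values given next. The ratio itself has no meaning, since probe sets differ in brightness, and only its difference between antibodies is read. The 10 pairs were picked after the values were seen and are given without a test. Each pair difference follows from the 2 single-gene differences given above. Single genes did not overlap in 49.9% of all genes, and the share of gene pairs at large that stay apart was not computed. For DDB2 over DDB1 the ratio was -0.72 ± 0.20 with eIF4E in irradiated cells and -0.84 ± 0.31 with eIF4E in untreated cells, against -2.61 ± 0.64 with IgG in irradiated cells and -2.09 ± 0.22 with IgG in untreated cells (SD, n = 3), a difference of 1.57 over both treatments. For CETN2 over XPC the difference was 2.00, for CETN2 over RAD23B 1.43, for ERCC8 over ERCC6 1.06, for MSH3 over MSH6 1.11 and for RAD23B over XPC 0.57. In these 6 pairs the 6 eIF4E arrays did not overlap the 6 IgG arrays. In the other 4 the arrays overlapped: PMS1 over MLH3 differed by 0.42, ERCC3 over ERCC2 by 0.30, XRCC1 over LIG3 by 0.30 and PARP2 over PARP1 by 0.26. Several of these values rest on the choice of probe set, as an alternative added after seeing the data showed. With the other MSH3 probe set MSH3 over MSH6 differed by 0.04, with the other MSH6 probe set by 0.20, and with both by -0.87, each with overlap. With the second RAD23B probe set RAD23B over XPC differed by -0.0041 with overlap and CETN2 over RAD23B by 2.00 without overlap. With the second LIG3 probe set XRCC1 over LIG3 differed by -1.05 without overlap, with the other MLH3 probe sets PMS1 over MLH3 differed by -0.57 and -0.32, and with the other PARP2 probe sets PARP2 over PARP1 differed by 0.62 and 0.62, these last 4 with overlap.

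**Figure D3:**
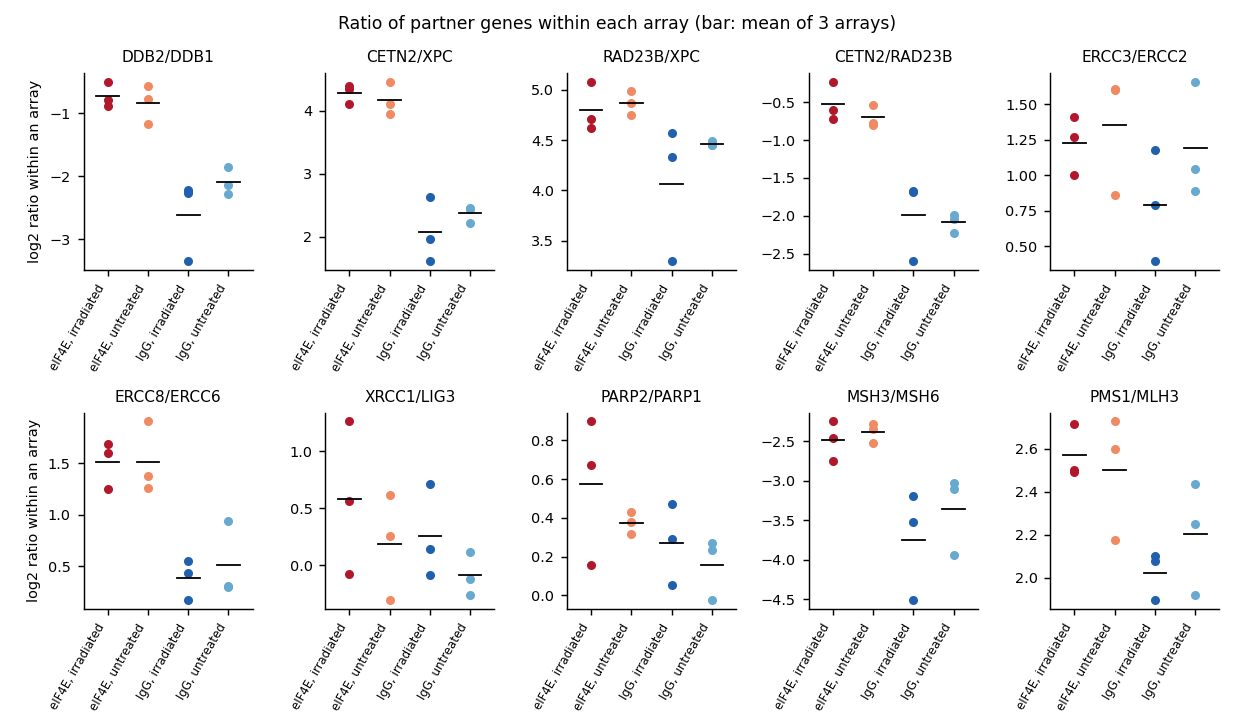
Log2 ratio of partner genes within each array for 10 pairs, 1 point per array and a bar at the mean of 3, with irradiated eIF4E, untreated eIF4E, irradiated IgG and untreated IgG precipitates from left to right. Each gene is given by its brightest probe set, except MSH3, whose brighter, cross-hybridizing probe set was set aside. The vertical axes differ between panels and their zero has no meaning, since probe sets differ in brightness. In DDB2/DDB1, CETN2/XPC, RAD23B/XPC, CETN2/RAD23B, ERCC8/ERCC6 and MSH3/MSH6 every eIF4E point is above every IgG point.

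Of the 31 genes 11 had several probe sets, and 10 had several above the filter. In 0 of these 10 were 2 probe sets called in opposite directions at an adjusted p of 0.05 over all probe sets above the filter. The same counts were not made over all genes, so they describe the repair genes alone. ERCC1 and MSH6 had all of theirs called the same way, PARP2 and TDG had none called, and the other 6 (LIG3, MBD4, MLH3, MSH3, OGG1 and RAD23B) held both called and uncalled ones.

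LIG3 showed the widest disagreement. Its brighter probe set read 145, 51.5 and 104 with eIF4E in irradiated cells and 85.9, 91.2 and 184 with eIF4E in untreated cells, against 157, 77.4 and 167 with IgG in irradiated cells and 102, 180 and 134 with IgG in untreated cells, with full overlap. Its other probe set read 99.8, 89.5 and 139 with eIF4E in irradiated cells and 87.9, 113 and 90.6 with eIF4E in untreated cells, against 106, 41.2 and 8.40 with IgG in irradiated cells and 28.4, 45.2 and 59.9 with IgG in untreated cells. The dimmer one was higher by 1.04 ± 0.33 (adjusted p = 0.00641), with irradiated IgG replicate 1 (106) as the only IgG array inside the eIF4E range. For MSH3 the probe sets had one sign. The uncalled one read 281, 148 and 213 with eIF4E in irradiated cells and 223, 229 and 211 with eIF4E in untreated cells, against 220, 240 and 374 with IgG in irradiated cells and 160, 335 and 249 with IgG in untreated cells. The other, whose design allows cross-hybridization to related sequence, read 188, 142 and 123 with eIF4E in irradiated cells and 139, 165 and 151 with eIF4E in untreated cells, against 389, 389 and 350 with IgG in irradiated cells and 325, 443 and 487 with IgG in untreated cells. It was lower, at -1.30 ± 0.14 (adjusted p = 3.62e-07), close to the main MSH6 probe set.

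RAD23B gave an uncalled and a called probe set too. The brighter one read 3145, 3592 and 3234 with eIF4E in irradiated cells and 3850, 3239 and 3653 with eIF4E in untreated cells, against 2245, 4754 and 3123 with IgG in irradiated cells and 3716, 4061 and 4181 with IgG in untreated cells. The second read 1257, 1738 and 1589 with eIF4E in irradiated cells and 1720, 2020 and 2117 with eIF4E in untreated cells, against 2253, 2407 and 3047 with IgG in irradiated cells and 2895, 2603 and 2851 with IgG in untreated cells, and was lower, at -0.63 ± 0.11 (adjusted p = 8.62e-05) without overlap. As the mean of its probe sets RAD23B passed as lower (-0.40, adjusted p = 0.0196).

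For MBD4 the brightest probe set read 1074, 1178 and 1142 with eIF4E in irradiated cells and 957, 950 and 1097 with eIF4E in untreated cells, against 913, 1093 and 1209 with IgG in irradiated cells and 1040, 1242 and 1330 with IgG in untreated cells. Its next probe set read 638, 738 and 704 with eIF4E in irradiated cells and 658, 761 and 723 with eIF4E in untreated cells, against 581, 508 and 513 with IgG in irradiated cells and 580, 514 and 580 with IgG in untreated cells. That one was higher by 0.36 ± 0.09 (adjusted p = 0.00443) without overlap, and the remaining one above the filter was higher by 0.45 ± 0.15 (adjusted p = 0.0133) with overlap. MLH3 was lower by its brightest probe set alone, and the other 2, both of the cross-hybridizing design, were at 0.09 ± 0.20 and -0.15 ± 0.20.

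**Figure D4:**
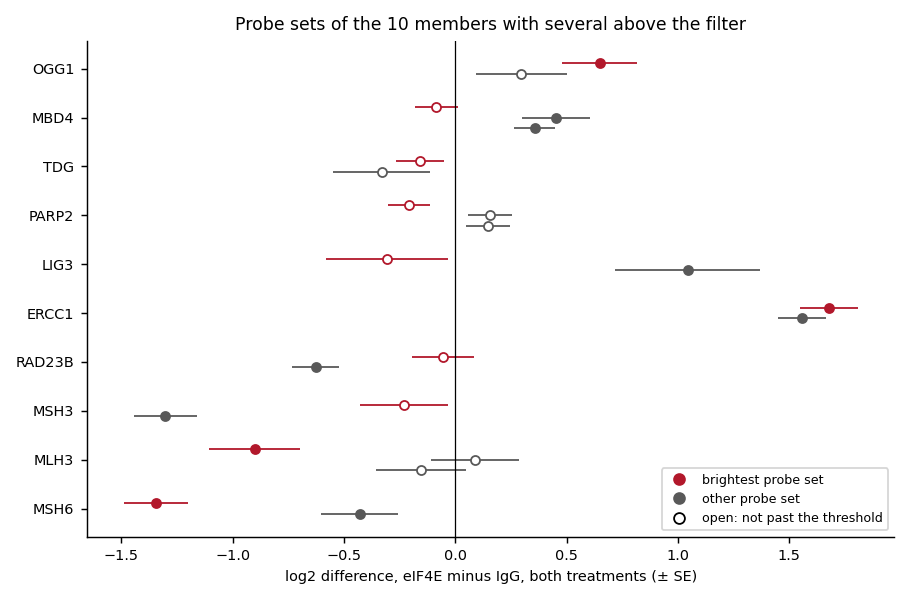
Difference in log2(signal + 16), eIF4E minus IgG over both treatments (± SE, 6 arrays a side), for each probe set above the filter of the 10 repair genes that have several. Red marks the probe set that represents the gene and grey the others, and filled points pass an adjusted p of 0.05. The red one is the brightest except in MSH3, where the grey one is brighter. ERCC1 has its probe sets at 1.68 and 1.56, whereas LIG3 has them at -0.31 and 1.04.

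Each treatment was also compared on its own, with 3 arrays a side. In irradiated cells 16 of 30 genes passed, 8 higher and 8 lower, where 59.5% of all genes passed, 27.2% higher and 32.3% lower. In untreated cells 15 passed, 9 higher and 6 lower, where 58.9% of all genes did, 27.2% higher and 31.7% lower. The arrays of both antibodies did not overlap in 19 repair genes in irradiated cells, as in 62.4% of all genes, and in 19 in untreated cells, as in 66.7%. A total of 12 genes (40.0%) passed in both, where 51.3% of all genes did. Of these, 7 (of all genes called in both, 64.9%) kept their call under every alternative that tested them: MPG, POLB, UNG, ERCC1, CETN2 and DDB2 as higher and MSH6 as lower. MPG was higher by 1.75 in irradiated and 1.71 in untreated cells, ERCC1 by 1.75 and 1.61, and CETN2 by 1.51 and 1.23, while MSH6 was at -1.62 and -1.07. The other 5 (APEX1, ERCC3, MLH3, PMS1 and XPC) lost the call in at least 1 treatment under some alternative.

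The count of lower genes in untreated cells rested on few arrays. It was 2 in place of 6 without untreated eIF4E replicate 1 or without untreated IgG replicate 2, 3 without untreated eIF4E replicate 3, and 2 after median centring. Mismatch repair had 3 of 4 genes lower in each treatment (MSH6, MLH3 and PMS1). In irradiated cells this fell to 2 without irradiated eIF4E replicate 3, and in untreated cells it fell to 1, MSH6, without untreated IgG replicate 2 and to 2 without untreated eIF4E replicate 1 or 3. Median centring left 2 in each treatment, without PMS1 (adjusted p = 0.081 in irradiated and 0.0554 in untreated cells). As the mean of all probe sets MLH3 did not pass in irradiated (-0.37, adjusted p = 0.101) or untreated cells (-0.27, adjusted p = 0.219), and MSH3 passed in both, so that 3 genes were lower but not the same 3. Without replicate 1 of every group the count was 4 in irradiated and 2 in untreated cells.

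The genes around the members were taken from lists of 52 further pathway genes, of which 38 were tested. Of these 16 were higher and 13 lower over both treatments (median 0.16, or 76.3% called), where among all genes 70.7% were called, 32.5% higher and 38.2% lower, with a median of -0.07. Among 9 further base excision genes 4 were higher and 3 lower, from PARP3, another PARP enzyme (0.97 ± 0.28), and APEX2, a second abasic endonuclease (0.72 ± 0.23), to FEN1, the flap nuclease of long-patch repair (-0.79 ± 0.11), and HMGB1, a chromatin protein that bends DNA (-0.86 ± 0.10). Among 13 further nucleotide excision genes 7 were higher and 4 lower. RPA3, the smallest subunit of the single-strand binding protein RPA (1.80 ± 0.11), and RBX1, the RING subunit of cullin ligases (1.67 ± 0.13), were at the upper end. GTF2H3, a TFIIH subunit (-0.94 ± 0.13), and CUL4B (-1.62 ± 0.09), a cullin of the ligases that hold DDB1, were at the lower end. Among 16 genes of mismatch removal and gap filling 5 were higher and 6 lower, from POLD4 (2.11 ± 0.27), the smallest subunit of DNA polymerase delta, and RFC2 (1.39 ± 0.11), a clamp loader subunit, to EXO1, the exonuclease of mismatch repair (-0.70 ± 0.12), and RFC1, the large clamp loader subunit (-1.05 ± 0.11).

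Gene length was set beside the differences as a description. Over the 30 repair genes the length of the gene on the genome correlated with the eIF4E over IgG difference at a Spearman rho of -0.27 (Pearson r = -0.26 on log2 length), and over 7177 genes tested at -0.47. Genes are not independent replicates, all values come from the same 12 arrays, and no p is given. The 10 higher repair genes had a median length of 29.0 kb and the 10 lower ones 35.7 kb, whereas among all genes the higher ones had 15.5 kb and the lower ones 57.8 kb. APEX1, at 2.54 kb the shortest member, was among the lower genes, and CETN2, at 3.76 kb, among the higher. The share of G and C in the first 50 transcribed bases correlated at -0.03 over 28 repair genes with a sequence and at 0.07 over 6055 genes.

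DDB2 and XPC are known as targets that p53 switches on after DNA damage, and MDA-MB-231 is known to carry mutant p53. The p53 consensus was searched on both strands as 2 copies of its 10-base element with 0 to 13 bases between them and no mismatch. The search covered RefSeq promoter windows of GRCh38.p14, from 250 bases before to 50 after each annotated start. It was found in 10 of 35116 windows (0.0285%). Of the 32 listed genes 30 had a window, 43 windows in all, with none for POLB and SMUG1, so these are not the 30 genes tested. The consensus was found in 1 of the 43, a window of DDB2. That site, at chr11:47214979-47214999 on the plus strand, begins 6 bases after an annotated DDB2 start and is shown because DDB2 is the member whose induction by damage is best known. Capitals mark both 10-base elements and the lower-case letter the base between them.
DDB2: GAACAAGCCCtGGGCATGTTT
A match is a description of letters and says nothing of binding in these cells.

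The comparison of irradiated with untreated cells asks whether 2 Gy changed which messengers were held 6 h later. In eIF4E precipitates limma called 0 of 30 repair genes and 0.0% of all genes, and at an unadjusted p of 0.05 it marked 0 repair genes and 82 of 7178 genes. Differences of the 30 genes ran from -0.24 (LIG3) to 0.18 (MBD4), with a median of 0.02. The smallest p-values were those of MBD4 (0.18, 95% interval -0.14 to 0.49), PARP1 (-0.18, -0.51 to 0.16) and APEX1 (0.10, -0.19 to 0.38), each with an adjusted p of 1.0. DDB2 was at 0.03 (95% interval -0.35 to 0.42) and XPC at -0.04 (-0.49 to 0.41), so smaller changes than those bounds remain possible. In 0 of the 30 genes did irradiated and untreated eIF4E arrays stay apart, where 9.4% of all genes did.

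In IgG precipitates 0 of 30 repair genes and 0.0% of all genes were called, and at an unadjusted p of 0.05 the counts were 2 and 475. The repair genes ran from -0.39 (ERCC8) to 0.73 (ERCC5), with a median of 0.09. MSH6 was at 0.56 (95% interval 0.13 to 1.00, unadjusted p = 0.0147, adjusted p = 0.631 by limma). Its value rested in part on irradiated IgG replicate 1 (5376), without which it was 0.32 (adjusted p = 0.978). ERCC8 was at -0.39 (-0.76 to -0.02, adjusted p = 0.71), with 206, 174 and 254 in irradiated cells against 309, 268 and 263 in untreated cells. ERCC5 was at 0.73 (-0.02 to 1.47, adjusted p = 0.731). In these 3 genes irradiated and untreated IgG arrays did not overlap, 3 of 30 where 8.68% of all genes did not.

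The irradiation effect in eIF4E minus that in IgG was called in 0 of 30 repair genes and in 0.0% of all genes, and at an unadjusted p of 0.05 in 0 and 216. Its smallest p-values among repair genes belonged to MSH6 (-0.55, 95% interval -1.16 to 0.07), MBD4 (0.34, -0.10 to 0.78) and ERCC8 (0.40, -0.12 to 0.92), each with an adjusted p of 0.999. For MSH6 the irradiation difference was 0.02 with eIF4E and 0.56 with IgG. The antibody difference of MSH6 was thus -1.62 in irradiated and -1.07 in untreated cells, and these did not differ beyond the threshold.

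**Figure D5:**
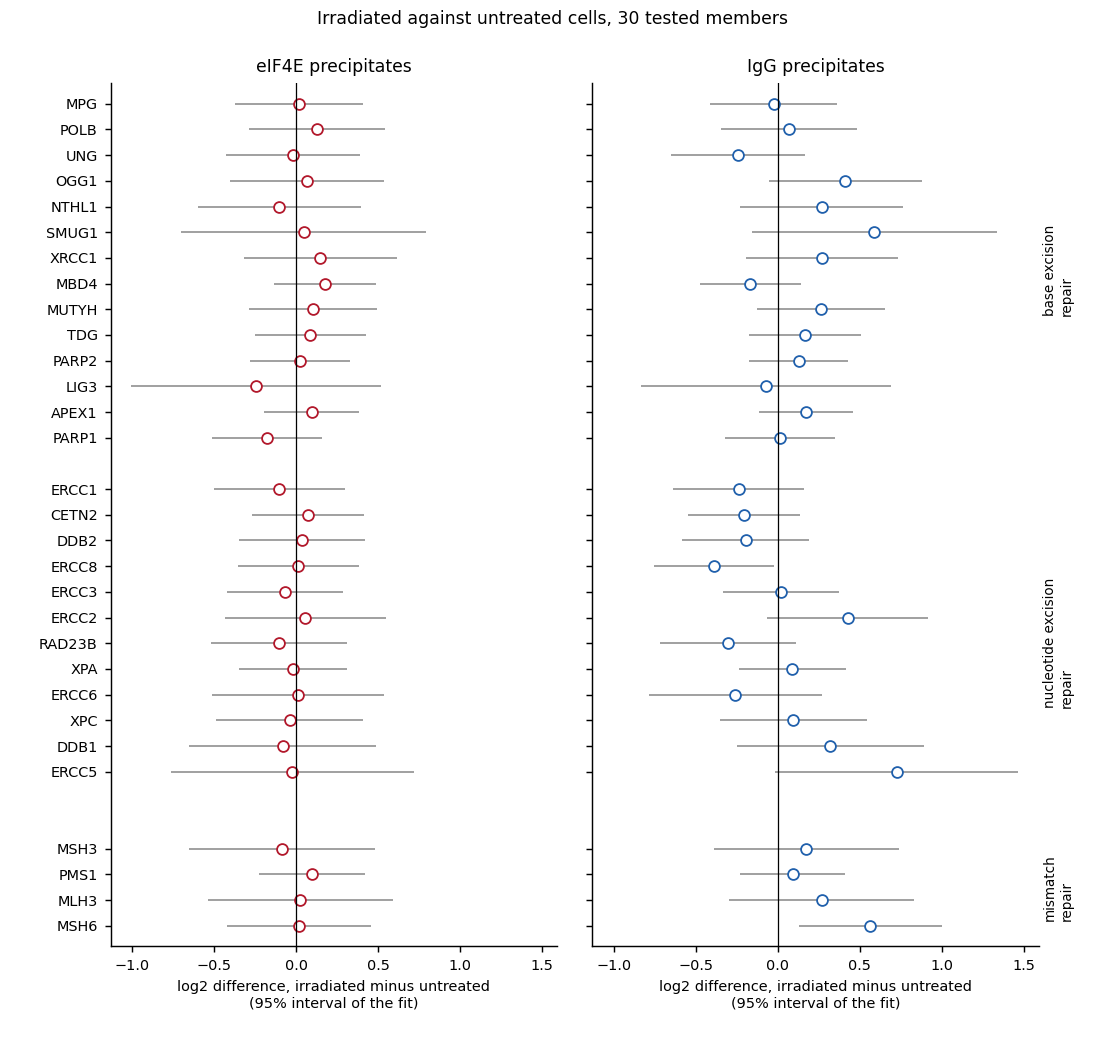
Difference in log2(signal + 16), irradiated minus untreated cells, with the 95% interval of the fit for the 30 tested repair genes, in eIF4E precipitates on the left and in IgG precipitates on the right (3 arrays a side). No gene passed an adjusted p of 0.05 on either side. In the eIF4E panel every interval includes 0, and in the IgG panel those of MSH6 (0.13 to 1.00) and ERCC8 (-0.76 to -0.02) do not.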

How the data were processed

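RNA from 12 precipitates was hybridised to 1 Affymetrix array each. The deposited values are 1 intensity per probe set on a linear scale, made by the authors with MAS5 per the submitters' processing notes. The version, the amount of RNA labelled and the scan dates are not given in the sources used here. Symbols came from the platform annotation, updated by gene identifier to RefSeq's GRCh38.p14 table. Each gene was represented by its brightest probe set, with cross-hybridizing (_x_at) ones only where there was no other. Of these, 7178 genes at or above the 40th percentile of mean log2(signal + 16), a signal of 57.4, were tested. The model was limma's (version 3.58.1, R 4.3.3): lmFit on log2(signal + 16) with 4 group means over 12 arrays, then eBayes with a variance trend, with Benjamini-Hochberg adjustment over all 7178. The scale understates changes of dim genes. Errors are the fit's SE, or SD where stated, and precision is limited by the number of arrays. In a test on simulated data 200 of 7178 genes were changed, 50 at each size, for the comparison over both treatments. Changes of 0.5, 1, 1.5 and -1 were recovered in 50%, 96%, 94% and 90% of genes. In the data 70.7% of genes were called there, which moves the cut-off of the adjustment, so these shares do not give the recovery in the data.

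The members, the lists and the tests were chosen with earlier results of these data known. All members are named. Values by array are given for up to 3 called members per direction and pathway, for members whose probe sets disagree and for the 3 smallest p-values of each irradiation comparison, and further pathway genes are named up to 2 at either end of a list. Arrays of a group correlated at 0.956 to 0.991 and 0 pairs were identical. Replicate numbers were checked as a pairing. Same-numbered irradiated and untreated eIF4E arrays deviated together (r = 0.374, 0.208 and 0.181), while each other pair of groups had at least 1 number under 0.1. Replicate 1 arrays deviated together in every pair of groups (r = 0.096 to 0.374). Replicates 2 and 3 of the eIF4E groups also did so across numbers (r = 0.111 and 0.118). The labels tie the numbers to no shared culture. Alternatives were pseudocounts of 1 and 64, no filter, a 60th percentile filter, median centring, quantile normalization, array weights, no trend, a block for the replicate number, fits of only 2 groups, averages over probe sets, probe sets taken singly, the omission of each array, and of replicate 1 of every group.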

Additional observations from a re-analysis of the deposited data

How the results depend on the processing

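The number of repair genes called over both treatments was 20, and 14 to 23 under the alternatives (18 to 21 with any 1 array left out, 14 with the filter at the 60th percentile, which tests fewer genes). In irradiated cells it was 16, and 13 to 18 under the alternatives (14 to 17 with 1 array left out). In untreated cells it was 15, and 11 to 19 under the alternatives (11 to 16 with 1 array left out). With the replicate number as a block the counts were 20 over both treatments, 16 in irradiated and 16 in untreated cells, where PARP1 was gained (-0.37, adjusted p = 0.0418), and 0 in every irradiation comparison, as under each other alternative. Over both treatments 686 of 709 alternative values kept their side of the threshold, and also their direction where called. Of the rest, 12 lost the call, 10 gained it and 1 lost it with a change of sign. That one was ERCC8 as the mean of its probe sets, which was not called (-0.048, adjusted p = 0.839). Its added probe set lies below the filter. The sign of values that stayed uncalled was not counted. Among those, MUTYH (-0.15 to 0.0063), XRCC1 (-0.051 to 0.080) and RAD23B (-0.19 to 0.084) took both signs with 1 array left out. Among the losses and gains, MSH3 passed as the mean of its probe sets (-0.77, adjusted p = 0.00027) and without replicate 1 of every group (-0.54, adjusted p = 0.0161), whose ratio of the hybridization controls bioB and bioC stood apart. Other probe sets, an alternative added after seeing the data, reversed the difference in 3 within-array ratios. These were MSH3 over MSH6 (-0.87), XRCC1 over LIG3 (-1.05) and PMS1 over MLH3 (-0.57 and -0.32). For RAD23B over XPC the second RAD23B probe set left almost no difference (-0.0041, with overlap). The cause of these changes was not tested. Dim probe sets limit what can be said of ERCC4, SMUG1, LIG3, MLH3, XPC, XRCC1, ERCC6 and ERCC5.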
